A study of Homo sapiens with 48 samples.

Results

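Genes of HLA class I antigen presentation were followed by name through the deposited read counts: HLA-B, HLA-C, HLA-E, HLA-F, B2M, TAP1, TAP2, NLRC5 and PSMB9, which are 9 of the 58870 genes counted. They were measured by poly-A RNA-seq in 48 libraries of 3 uveal melanoma lines, 92-1, MEL202 and MP41, whose genotype the labels give as WT. FHT-1015, a dual inhibitor of the chromatin remodelling ATPases SMARCA4 and SMARCA2, was given to each line for 4 or 24 h beside DMSO, the solvent control. IDE196, an inhibitor of protein kinase C, was given to 92-1 alone for 4 or 24 h, beside a separate set of DMSO libraries. Doses are not given in the sources used here. A line with a drug and its own DMSO libraries at both times is called an experiment, so there were 4 experiments of 12 libraries, in 16 groups of 3 biological replicates. All groups are bulk RNA of 1 established line.

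Class I molecules show peptides from inside the cell to CD8 T cells and natural killer cells. A polymorphic heavy chain pairs with beta-2-microglobulin in the endoplasmic reticulum and is loaded with peptides that the proteasome cuts and the TAP transporter pumps in. Interferon gamma raises most genes of the pathway, and NLRC5 joins a protein complex on class I promoters and activates them. Low class I expression is a known route of escape from T cells in skin melanoma. Its meaning in uveal melanoma was not examined here. The 9 genes take 4 roles: NLRC5 is the transactivator, HLA-B, HLA-C, HLA-E and HLA-F are heavy chains, B2M is their shared light chain, and TAP1, TAP2 and PSMB9 make and transport the peptides.

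Of the 9 genes, 7 lie in the major histocompatibility complex on chromosome 6. In GENCODE 29 (GRCh38), HLA-F spans chr6:29722775-29738528 on the plus strand, HLA-E chr6:30489467-30494205 on the plus strand, HLA-C chr6:31268749-31272130 on the minus strand, and HLA-B chr6:31269491-31357188 on the minus strand. TAP2 spans chr6:32821833-32838780 and TAP1 chr6:32845209-32853978, both on the minus strand, and PSMB9 spans chr6:32844136-32859585 on the plus strand. B2M lies at chr15:44711487-44718877 and NLRC5 at chr16:56989485-57083531, both on the plus strand. Reads that fall on exons of overlapping genes are ambiguous and were not counted for either gene. Of the exon bases, 28.5% were shared with other genes for HLA-F, 32.3% for TAP2, 18.9% for HLA-B, 9.49% for TAP1 and 5.66% for PSMB9. For HLA-F and HLA-B the overlap is mostly with genes on the opposite strand: when the 2 stranded columns were summed, the reads over 48 libraries were 2.71 times as many for HLA-F, 1.64 times for HLA-B and 1.28 times for TAP1. HLA heavy chains are also near-identical paralogs with many alleles, counted here against 1 reference, so levels of HLA-B, HLA-C, HLA-E and HLA-F are uncertain between lines, and the part of alleles in them was not tested.

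Promoters of HLA-B, HLA-C, B2M and TAP2 are shown because these genes share regulators. In line 92-1 at 24 h HLA-C was called higher and B2M and TAP2 were called lower. HLA-B was not called in any drug comparison, and whether its response differed from that of HLA-C was not tested. The sequences are from RefSeq (GRCh38.p14), 5′ to 3′ on the gene's strand, and end where the gene begins in GENCODE 29. Capitals mark matches on either strand to 4 short motifs: GAAANNGAA (interferon response), GGGANTNCC (NF-kB), ATTGG (Y box) and TGACG (X2 box). Matches of the interferon response motif in B2M overlap each other.
HLA-B, chr6:31357189-31357429, minus strand: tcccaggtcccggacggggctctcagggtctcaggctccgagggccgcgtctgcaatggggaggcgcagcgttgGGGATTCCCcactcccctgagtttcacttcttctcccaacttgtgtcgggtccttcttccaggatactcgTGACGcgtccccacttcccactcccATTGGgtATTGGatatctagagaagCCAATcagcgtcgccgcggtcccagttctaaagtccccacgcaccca
HLA-C, chr6:31272131-31272342, minus strand: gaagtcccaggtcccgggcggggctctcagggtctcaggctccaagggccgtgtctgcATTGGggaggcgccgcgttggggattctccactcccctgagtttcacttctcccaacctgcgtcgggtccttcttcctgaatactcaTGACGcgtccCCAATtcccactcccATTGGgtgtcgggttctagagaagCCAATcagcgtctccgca
B2M, chr15:44711267-44711486, plus strand: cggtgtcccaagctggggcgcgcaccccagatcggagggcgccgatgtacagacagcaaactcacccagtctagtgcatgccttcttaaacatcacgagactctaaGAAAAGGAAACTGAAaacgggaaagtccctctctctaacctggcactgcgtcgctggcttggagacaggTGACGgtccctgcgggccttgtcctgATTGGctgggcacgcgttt
TAP2, chr6:32838781-32838989, minus strand: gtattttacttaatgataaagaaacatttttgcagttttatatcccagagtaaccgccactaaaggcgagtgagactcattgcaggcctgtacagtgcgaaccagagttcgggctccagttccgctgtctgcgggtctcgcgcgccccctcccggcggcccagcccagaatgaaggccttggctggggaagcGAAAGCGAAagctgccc

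Within 250 bases before the RefSeq start, HLA-B and HLA-C both held the X2 box motif, at -106 and -105, and a Y box motif at -56 on the other strand. The NF-kB motif was matched at -176 in HLA-B, and no match was found in that window of HLA-C. B2M held interferon response matches at -144 and -138, an X2 box match at -75 and a Y box match at -49. TAP2 held an interferon response match at -58, and an X2 box match at -35 that lies past the end of the printed sequence. The starts of TAP1 and PSMB9 face away from each other with 487 bases between them, taking the TAP1 start at 32853704. Before that start TAP1 held interferon response matches at -133 and -127 on the other strand. The window of another TAP1 start, at 32852761, held no match to any of the 4 motifs. Among 35116 promoters in the table, read over the same window, the interferon response motif was present in 6.88%, the NF-kB motif in 3.75%, the Y box motif in 32.0% and the X2 box motif in 21.2%. A match describes letters and not binding. The table matched 7 of the 9 genes; it has no entry for HLA-E or NLRC5.

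Each library had 11394088 to 32317711 reads in genes. One MEL202 library (FHT-1015, 4 h, replicate 2) had reads in 17592 genes, the fewest, against 20023 in the next. Without it the members called in MEL202 at 24 h were again 3 higher, beside 12% of genes, and 2 lower, beside 12.6%. At 4 h none was called, as with all libraries, where only 0.157% of genes were called higher and 0.522% lower. In MP41 1 DMSO library at 24 h (replicate 2) had 20353 genes with a read, beside 23112 and 23026 in the others of its group, and the effects on the 9 members at 24 h in MP41 are given without it too, under each gene. Without it the members called there were 3 higher, beside 16.4% of genes, and 2 lower, beside 18.6%, and no difference of DMSO levels between MP41 and another line changed its call. The 7 melanocytic markers summed to between 8036 and 17700 TPM (transcript abundance per length, on a scale with the same total in each library) in the 24 DMSO libraries. At 24 h of FHT-1015 that sum was lower, at 3818 to 4093 TPM in 92-1 beside 15680 to 17700 in DMSO, 2827 to 3112 in MEL202 beside 8036 to 9650, and 5706 to 6333 in MP41 beside 12630 to 12890. With IDE196 at 24 h it was 16120 to 17490 TPM beside 15190 to 16750. The part of this fall in the effects of FHT-1015 was not tested. The 6 leukocyte markers, of cells rich in class I transcripts, summed to at most 1.98 TPM in any of the 48 libraries, and CD3E and CD68 never had more than 3 reads. The 3 endothelial markers summed to at most 0.643 TPM. The 4 epithelial markers reached 25.1 TPM, in the IDE196 experiment, and the 3 fibroblast markers 25.2 TPM, in MP41. In 92-1 at 24 h the fibroblast sum was 3.18 to 3.74 TPM with FHT-1015 beside 1.26 to 1.43 in DMSO, and 3.85 to 6.41 TPM with IDE196 beside 2.38 to 3.45, and its part in the effects was not tested. In bulk RNA, fewer expressing cells and less RNA per cell cannot be told apart.

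Of the 3 lines in DMSO of the FHT-1015 experiments, MP41 had the highest HLA-B, HLA-C, HLA-E, TAP1, TAP2 and PSMB9 and the lowest B2M and HLA-F, and MEL202 had little HLA-B. Levels are compared between genes as TPM, on the union of a gene's exons, given as mean ± SD over 6 DMSO libraries. In MP41 the order was HLA-E at 368 ± 86.7, HLA-C at 286 ± 56.6, HLA-B at 108 ± 13.3, B2M at 107 ± 33.2, TAP1 at 43.4 ± 9.12, TAP2 at 13.7 ± 1.78, HLA-F at 1.97 ± 0.344, PSMB9 at 1.90 ± 0.459 and NLRC5 at 0.872 ± 0.252 TPM. The ranges of the neighbours HLA-E and HLA-C, HLA-B and B2M, B2M and TAP1, and HLA-F and PSMB9 overlapped in that order. B2M is understated on this scale, which divides by all exons of a gene, those of long minor transcripts included, so its place may be higher. Reads lost on shared exons can also lower HLA-F, HLA-B, TAP1 and TAP2 here. With the stranded columns summed HLA-F had 2.71 times and HLA-B 1.64 times the reads, so their places in each line are uncertain too. In 92-1, in the DMSO set of FHT-1015, B2M led at 163 ± 15.6 TPM. HLA-E at 73.9 ± 6.65 and HLA-C at 57.3 ± 5.40 TPM came next and overlapped, and HLA-B was at 11.4 ± 1.56 TPM. HLA-F at 3.51 ± 0.525, TAP2 at 3.09 ± 0.557 and TAP1 at 2.07 ± 0.335 TPM each overlapped the next, and NLRC5 was at 0.798 ± 0.177 TPM.

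In MEL202 the non-classical chain HLA-E at 181 ± 24.0 TPM and B2M at 157 ± 51.1 TPM overlapped at the top, and which of them led depends on the scale. In CPM, reads per library total and not per length, B2M held 147 to 426 and HLA-E 127 to 195. HLA-C was at 22.3 ± 4.62 TPM, while TAP2 at 4.05 ± 0.406, TAP1 at 3.66 ± 1.01 and HLA-F at 2.90 ± 0.497 TPM overlapped in that order. HLA-B, a classical chain that presents peptides to CD8 T cells, was at 1.62 ± 0.444 TPM, from 12 to 51 reads a library. PSMB9, the interferon-induced beta1i subunit of the immunoproteasome, had 0 to 3 reads in 92-1 (DMSO set of FHT-1015), 1 to 9 in 92-1 (DMSO set of IDE196), 0 to 5 in MEL202 and 17 to 39 in MP41. PSMB6, the constitutive subunit in the same place, was at 172, 158, 317 and 462 TPM in those 4 sets. The constitutive subunit was therefore the more abundant in each set.

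**Figure D1:**
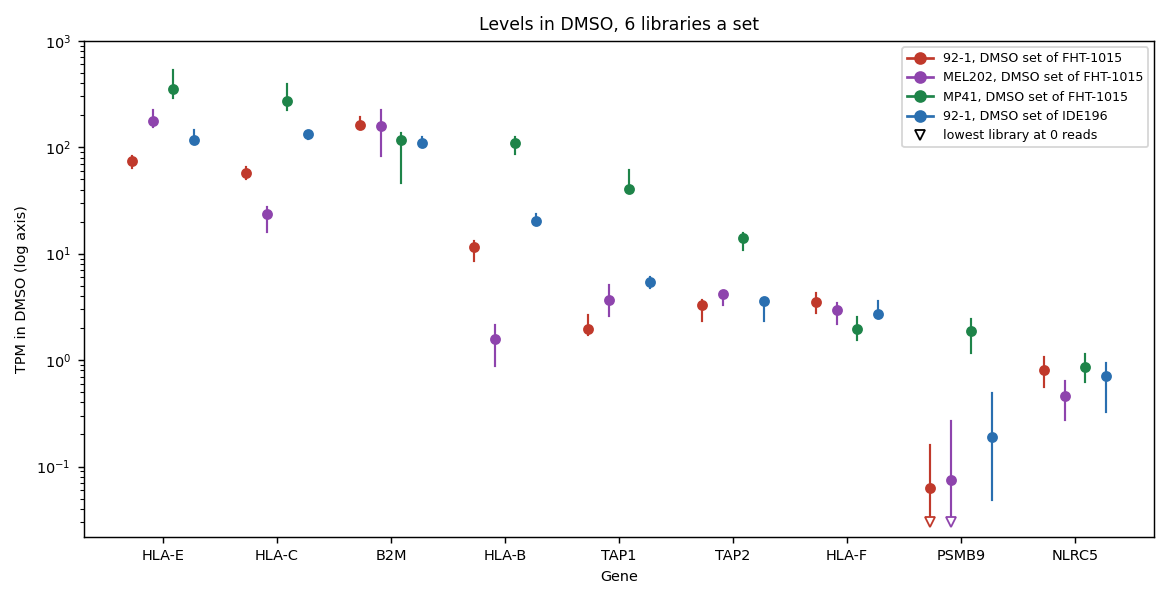
Levels of the 9 genes in DMSO (TPM, log axis), by line and DMSO set, with the median as a point and the line from the lowest to the highest of 6 libraries; open triangles mark sets whose lowest library had 0 reads. The MP41 sets of HLA-B, TAP1, TAP2 and PSMB9 lie above all other sets, and HLA-B of MEL202 lies below.

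The question of line differences was tested in 1 fit of the 36 libraries of the FHT-1015 experiments, averaging the 4 h and 24 h DMSO groups. PSMB9 passed the filter on low counts there through MP41 alone, where it is high, so it is left out of the counts and described by its reads. MP41 exceeded 92-1 in 5 of the other 8 members and was lower in 2, beside 65% of all genes called. TAP1 was 15.9-fold higher (log2 difference 3.99, SE 0.17, adjusted p = 4.77e-19), HLA-B 7.17-fold, HLA-C 3.79-fold, HLA-E 3.75-fold and TAP2 3.35-fold. PSMB9 had 17 to 39 reads a library in MP41, beside 0 to 3 in 92-1 and 0 to 5 in MEL202. B2M was 2.04-fold lower in MP41, and NLRC5 was not called (log2 -0.30, SE 0.21, adjusted p = 0.212). MP41 against MEL202 gave 8 of 8 calls, 6 higher, beside 56% of all genes, with HLA-B 58.5-fold higher (log2 5.87, SE 0.21, adjusted p = 5.27e-21), HLA-C 11.3-fold and TAP1 10.6-fold. B2M was lower there (log2 -0.74, adjusted p = 0.00584), a call that ended without MEL202 DMSO 4 h replicate 3 (0.0548), and NLRC5 higher (log2 0.75, adjusted p = 0.00388), a call that ended with no filter on low counts (0.0921). MEL202 against 92-1 gave 6 of 8 calls beside 52.9% of all genes: HLA-B was 8.16-fold lower, HLA-C 2.97-fold lower and NLRC5 2.07-fold lower, HLA-E was 2.08-fold and TAP1 1.49-fold higher, and HLA-F was lower. B2M was not called there (log2 -0.29, adjusted p = 0.295), but it was without MEL202 DMSO 4 h replicate 3 (0.0301). The fibroblast markers summed to 15.0 to 21.5 TPM in the DMSO libraries of MP41, beside 0.768 to 1.64 in 92-1 and 1.14 to 2.91 in MEL202, and the part of this in the line differences was not tested.

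All 3 line differences of HLA-F rest on the counting. It was called lower in MP41 than in 92-1 (log2 -1.21) and than in MEL202 (-0.73). With the stranded columns summed neither was called, and the difference from MEL202 became 0.012. In MEL202 it was called lower than in 92-1 (log2 -0.485, adjusted p = 0.017), and with the stranded columns summed this was -0.20 and not called (adjusted p = 0.208). That call also ended with no filter on low counts (0.132) and without 92-1 DMSO 4 h replicate 3, MEL202 DMSO 24 h replicate 2 or MEL202 DMSO 4 h replicate 2 (up to 0.0592). Each line was its own experiment, so line and experiment cannot be told apart.

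The 2 DMSO sets of 92-1 show how far 1 pair of experiments differed in the same line. In a fit of the 24 libraries of 92-1, 6 of 8 members tested differed between the sets, beside 60.4% of all genes. TAP1 was 2.40-fold higher in the set of IDE196 (log2 1.27, SE 0.12, adjusted p = 1.57e-09), HLA-C 2.13-fold, HLA-B 1.69-fold and HLA-E 1.5-fold, while B2M was 1.55-fold and HLA-F 1.33-fold lower. The HLA-F difference was not called with the stranded columns summed (adjusted p = 0.109), with no filter on low counts (0.0604), or without DMSO 24 h replicate 5 of the set of IDE196 or DMSO 4 h replicate 3 of the other set (up to 0.0554). The epithelial markers summed to 2.94 to 20.4 TPM in the set of IDE196 and 0.658 to 1.87 TPM in the other, and the fibroblast markers to 2.38 to 8.37 TPM and 0.768 to 1.64 TPM; the part of either was not tested. The line differences of HLA-B were larger than this, and that of TAP1 between MEL202 and 92-1 (log2 0.58) was smaller.

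No member was called for time in DMSO alone. Between 24 h and 4 h, 0 of 8 members were called in 92-1 (DMSO set of FHT-1015) beside 0.344% of genes, 0 of 8 in MEL202 beside 0% of genes, 0 of 9 in MP41 beside 2.59% and 0 of 8 in 92-1 (DMSO set of IDE196) beside 0.266%. In MEL202 330 genes had an unadjusted p under 0.05 by edgeR. The nearest to a call were HLA-E in MP41, 0.475 higher at 24 h on the log2 scale (adjusted p = 0.0809), and NLRC5 in MP41, 0.78 higher (0.11). Without MP41 DMSO 24 h replicate 3, 4 members were called there, beside 42.6% of genes.

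Drug effects were tested per experiment, with each drug against its own DMSO at the same time; a member was called at an adjusted p under 0.05 over all genes tested. Values per library are CPM (reads scaled to a common library total) with TMM scaling. Overlap of treated and DMSO libraries is given as a description. The share of all genes without overlap was not counted, so a lack of overlap alone does not show an effect. PSMB9 had too few reads to be tested outside MP41, so 8 members were tested in the other experiments. With FHT-1015 at 24 h NLRC5 and TAP2 fell and TAP1 rose in the 3 lines, and HLA-C and HLA-E rose in 92-1 and MEL202. With IDE196 at 24 h TAP2 fell and TAP1, HLA-C and HLA-E rose, while NLRC5 was not called.

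FHT-1015 in 92-1 at 4 h gave 1 member higher, beside 12.9% of genes, and 2 lower, beside 16.7%. At 24 h it gave 4 higher, beside 29.2%, and 3 lower, beside 31.4%. In MEL202 at 4 h no member was called in either direction, beside 0.157% of genes called higher and 0.522% lower. MEL202 at 24 h gave 3 higher, beside 8.69%, and 2 lower, beside 10.1%. In MP41 at 4 h no member was called, beside 0.0708% higher and 0.154% lower. MP41 at 24 h gave 2 higher of 9, beside 17.4%, and 2 lower, beside 18.7%. IDE196 in 92-1 at 4 h gave no call, beside 6.89% higher and 9.3% lower, and at 24 h 4 higher, beside 28.7%, and 2 lower, beside 29.4%. In 92-1 at 24 h a large part of all genes was called with either drug, so a call of 1 member there is common among genes.

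**Figure D2:**
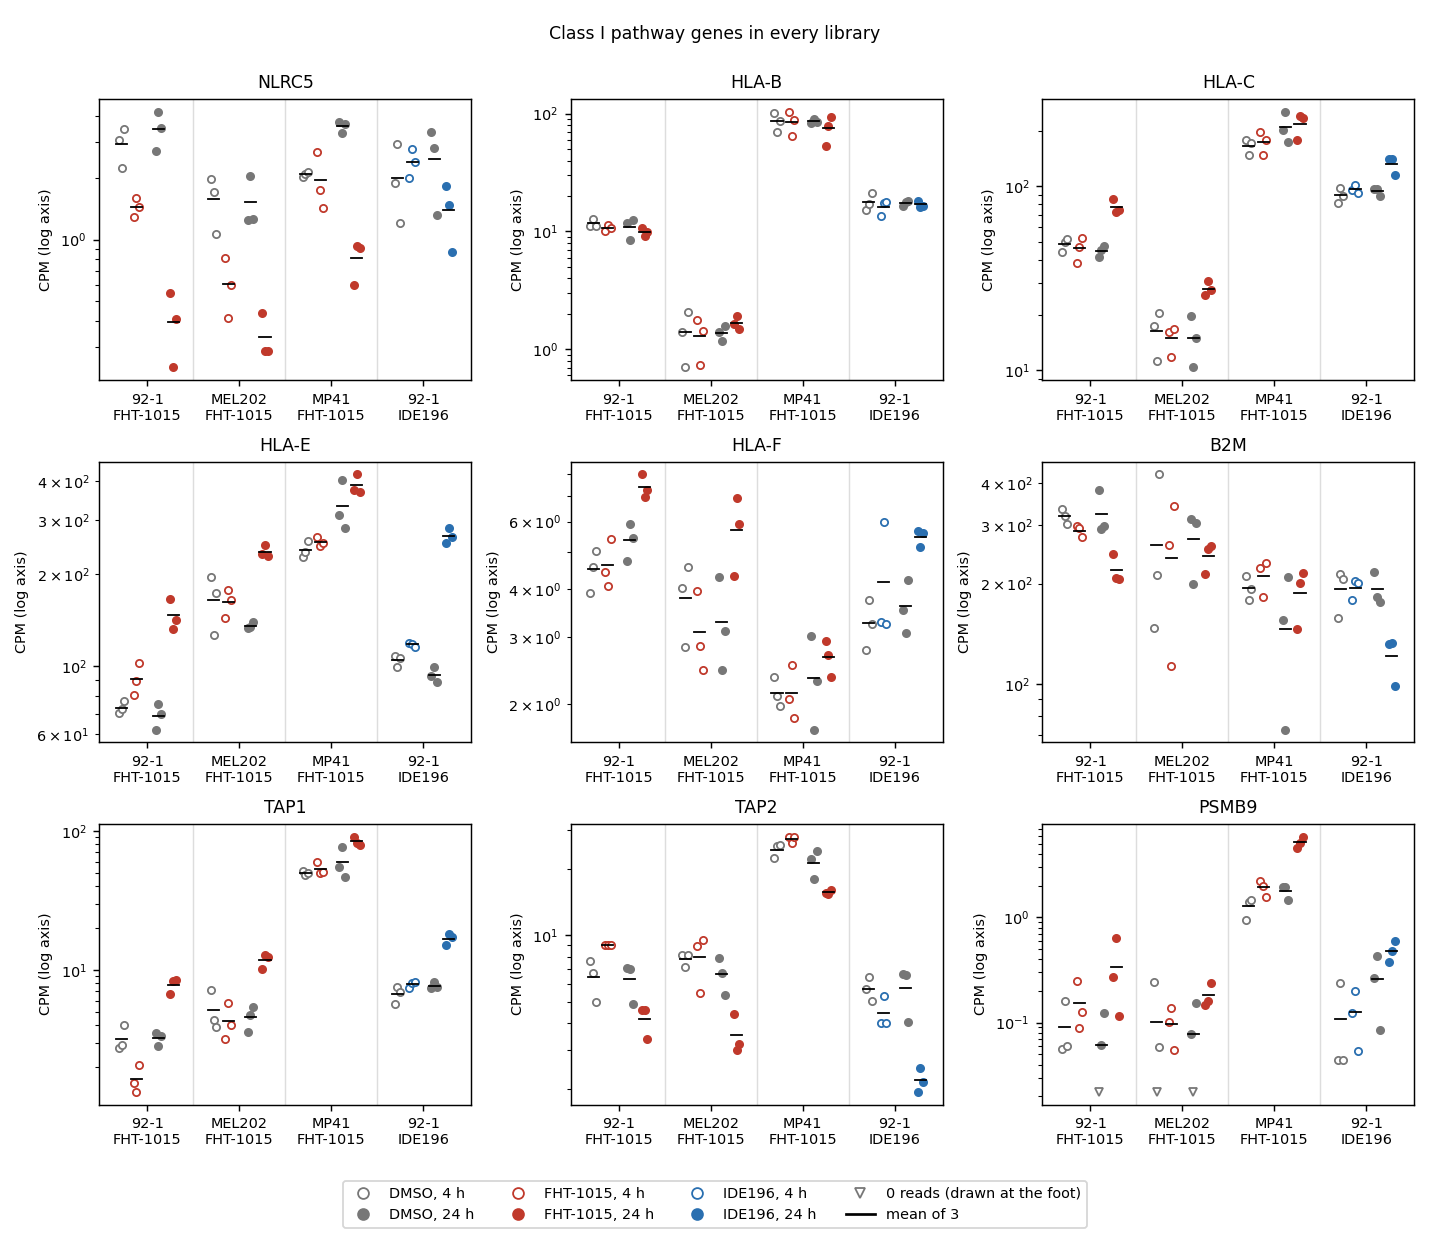
CPM of each gene in every library (log axis), by experiment and, from left to right within each, DMSO 4 h, drug 4 h, DMSO 24 h and drug 24 h; points are replicates, bars the mean of 3, open circles 4 h and filled circles 24 h, and triangles libraries with 0 reads. NLRC5 at 24 h of FHT-1015 is below every DMSO library in each line, while no HLA-B comparison was called.

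NLRC5, the transactivator of class I genes, fell in all 3 lines after 24 h of FHT-1015. In 92-1 the DMSO libraries at 24 h held 2.71, 4.20 and 3.51 CPM and the treated libraries 0.546, 0.238 and 0.407 CPM. The treated values came from 8, 3 and 7 reads, and no treated library reached the lowest DMSO library. The fall was 8.43-fold (log2 -3.08, SE 0.33, adjusted p = 1.01e-06). In MEL202 it went from 1.25, 2.04 and 1.26 CPM to 0.437, 0.284 and 0.287 CPM, 4.44-fold lower (log2 -2.15, SE 0.50, adjusted p = 0.00866). In MP41 it went from 3.76, 3.31 and 3.65 CPM to 0.597, 0.926 and 0.910 CPM, 4.33-fold lower (log2 -2.11, SE 0.30, adjusted p = 0.000131). In each line the treated and DMSO libraries did not overlap, and the call held when any 1 library of the experiment was left out. In MP41 it was at log2 -2.17 without DMSO replicate 2 of 24 h.

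At 4 h of FHT-1015 NLRC5 was called lower in 92-1, from 3.07, 2.23 and 3.45 CPM to 1.29, 1.59 and 1.45 CPM, which is 2.01-fold (log2 -1.01, SE 0.27, adjusted p = 0.00956). In MEL202 at 4 h NLRC5 held 1.99, 1.70 and 1.07 CPM in DMSO and 0.809, 0.413 and 0.601 CPM treated. These groups did not overlap, but the log2 difference of -1.38 (SE 0.48) was not called (adjusted p = 0.34). In MP41 at 4 h the difference was -0.13 (SE 0.29). The effect did not test as different among the lines at 4 h or at 24 h (adjusted p = 0.407 and 0.367). IDE196 at 24 h left NLRC5 at 1.82, 1.48 and 0.864 CPM beside 3.34, 2.79 and 1.32 CPM in DMSO, a log2 difference of -0.82 (SE 0.38) with an adjusted p of 0.0747, and the groups overlapped. Without DMSO replicate 6 at 24 h that difference was called (adjusted p = 0.015), and likewise with no filter on low counts (0.0293).

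HLA-E, the non-classical chain that natural killer cells read through NKG2A, rose at 24 h in 92-1 with both drugs and in MEL202 with FHT-1015. In 92-1 after 24 h of FHT-1015 it went from 62.1, 75.1 and 69.7 CPM to 166, 132 and 142 CPM, 2.13-fold (log2 1.09, SE 0.11, adjusted p = 3.9e-07). In MEL202 it went from 134, 134 and 139 CPM to 232, 248 and 228 CPM, 1.74-fold (log2 0.80, SE 0.19, adjusted p = 0.01). After IDE196 in 92-1 it went from 92.6, 99.4 and 88.4 CPM to 252, 282 and 264 CPM, 2.84-fold (log2 1.51, SE 0.08, adjusted p = 1.09e-10). All treated libraries in these 3 comparisons lay above all DMSO libraries. In MP41, where the DMSO level was already 311, 405 and 282 CPM, the treated libraries held 375, 422 and 370 CPM, the groups overlapped and the log2 difference of 0.23 (SE 0.14) was not called. Without DMSO replicate 2 at 24 h it was 0.39 and called (adjusted p = 0.0199). It was also called with limma-voom, which was run with library quality weights throughout (0.32, adjusted p = 0.00418). At 4 h HLA-E was called in 92-1 with FHT-1015, at 1.24-fold (log2 0.31, SE 0.11, adjusted p = 0.0417), a call that ended in 8 of the 12 fits without 1 library (any 4 h DMSO library, DMSO 24 h replicate 3, and FHT-1015 replicates 2 and 3 of either time), where the adjusted p reached 0.163.

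HLA-C, the classical chain that also binds killer immunoglobulin-like receptors, rose at 24 h in the same 3 comparisons. With FHT-1015 in 92-1 it went from 41.3, 45.0 and 47.3 CPM to 85.1, 72.8 and 74.7 CPM, 1.74-fold (log2 0.80, SE 0.11, adjusted p = 1.79e-05). In MEL202 it went from 19.7, 10.4 and 15.0 CPM to 25.5, 30.7 and 27.2 CPM, 1.85-fold (log2 0.89, SE 0.28, adjusted p = 0.0378). That call ended in 6 of the 12 fits without 1 library (DMSO 24 h replicate 2 or 3, any FHT-1015 library of 24 h, or FHT-1015 4 h replicate 1), where the adjusted p reached 0.146. With IDE196 it went from 96.1, 96.8 and 88.9 CPM to 141, 140 and 116 CPM, 1.41-fold (log2 0.50, SE 0.10, adjusted p = 0.000265). The groups did not overlap in any of these. In MP41 the log2 difference at 24 h was 0.05 (SE 0.17), and 0.20 without DMSO replicate 2 of that time (adjusted p = 0.352).

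HLA-B, the neighbour and close paralog of HLA-C, was not called in any of the 8 drug comparisons. In 92-1 at 24 h it held 11.7, 8.39 and 12.6 CPM in DMSO and 10.7, 9.11 and 9.84 CPM with FHT-1015 (log2 -0.14, SE 0.15), and the groups overlapped. With IDE196 it held 18.3, 16.1 and 16.5 CPM beside 16.5, 17.9 and 18.1 CPM in DMSO (log2 -0.05, SE 0.13). In MP41, where it was abundant, it held 52.9, 78.0 and 93.9 CPM with FHT-1015 at 24 h beside 82.6, 90.1 and 85.0 CPM in DMSO (log2 -0.20, SE 0.22, and -0.165 without DMSO replicate 2). In MEL202 it had 31 to 47 reads with FHT-1015 at 24 h and 20 to 51 in DMSO, where the SE of 0.45 leaves a change of the size seen for HLA-C undetectable. Whether HLA-B and HLA-C differed in their response was not tested.

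HLA-F, a non-classical chain found mostly inside cells, was low in each line. It was called higher at 24 h in 92-1, with FHT-1015 at 7.98, 6.97 and 7.28 CPM beside 4.73, 5.92 and 5.42 CPM (1.39-fold, log2 0.47, SE 0.17, adjusted p = 0.022) and with IDE196 at 5.67, 5.16 and 5.62 CPM beside 3.52, 3.07 and 4.21 CPM (1.52-fold, log2 0.60, SE 0.23, adjusted p = 0.0314). The groups did not overlap in either. The FHT-1015 call ended in 3 of 12 fits without 1 library (DMSO replicates 1 and 3 and FHT-1015 replicate 1 at 24 h), where the adjusted p reached 0.0937, and with no filter on low counts (0.0894). The IDE196 call ended in 4 of 12 (DMSO replicates 4 and 5 and IDE196 replicates 1 and 3 at 24 h), where it reached 0.12. In MEL202 the log2 difference at 24 h was 0.80 (SE 0.32, adjusted p = 0.1), with treated libraries at 4.32, 6.90 and 5.92 CPM, all above DMSO at 4.29, 2.45 and 3.10 CPM, and limma-voom called it (adjusted p = 0.00108), as did a fit of only the 6 libraries compared (0.0425). In MP41 it was 0.18 (SE 0.27), -0.004 without DMSO replicate 2, and -0.47 with the stranded columns summed (adjusted p = 0.0639).

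B2M, the light chain without which heavy chains do not reach the surface, fell in 92-1 with both drugs. With FHT-1015 at 24 h it went from 384, 292 and 298 CPM to 245, 208 and 207 CPM, 1.48-fold lower (log2 -0.56, SE 0.10, adjusted p = 0.000234). With IDE196 it went from 217, 183 and 176 CPM to 132, 132 and 98.6 CPM, 1.59-fold lower (log2 -0.67, SE 0.13, adjusted p = 0.000257). The groups did not overlap, and HLA-C and HLA-E were higher in the same libraries. In MEL202 B2M spread widely in DMSO at 4 h, from 147 to 426 CPM, and its difference at 24 h was -0.17 (SE 0.40). In MP41 1 DMSO library at 24 h, replicate 2, held 72.9 CPM beside 156 and 210 CPM, and the difference was 0.36 (SE 0.28, adjusted p = 0.34). It was 0.03 without that library. It was called with limma-voom (0.37, adjusted p = 0.0232) and without DMSO replicate 3 (0.66, adjusted p = 0.0328).

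TAP1 and TAP2 form the peptide transporter as a pair, and they moved in opposite directions at 24 h in each experiment. TAP1 with FHT-1015 went in 92-1 from 3.54, 2.84 and 3.33 CPM to 6.75, 8.32 and 8.44 CPM, 2.41-fold (log2 1.27, SE 0.21, adjusted p = 6.67e-05). In MEL202 it went from 3.55, 4.73 and 5.44 CPM to 10.1, 12.7 and 12.4 CPM, 2.56-fold (log2 1.36, SE 0.31, adjusted p = 0.00677). With IDE196 it went from 7.38, 8.13 and 7.53 CPM to 15.1, 18 and 17.2 CPM, 2.18-fold (log2 1.13, SE 0.13, adjusted p = 9.65e-07). Every treated library in these was above every DMSO library. In MP41 it went from 55.1, 76.5 and 46.5 CPM to 91.2, 81.5 and 79.5 CPM, 1.42-fold (log2 0.50, SE 0.17, adjusted p = 0.0364). This last call ended in 11 of the 12 fits without 1 library, where the adjusted p reached 0.163, and in a fit of only the 6 libraries compared (0.212). Without DMSO replicate 2 at 24 h it was kept, at log2 0.72 (adjusted p = 0.000864).

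TAP2 fell at 24 h. With FHT-1015 it went in 92-1 from 7.12, 7.03 and 4.87 CPM to 4.57, 4.6 and 3.38 CPM, 1.53-fold lower (log2 -0.61, SE 0.20, adjusted p = 0.0154). In MEL202 it went from 7.84, 6.72 and 5.38 CPM to 4.37, 3.00 and 3.20 CPM, 1.88-fold lower (log2 -0.91, SE 0.28, adjusted p = 0.033). In MP41 it went from 22.1, 17.9 and 24.1 CPM to 15.6, 15.4 and 16.1 CPM, 1.36-fold lower (log2 -0.44, SE 0.15, adjusted p = 0.0332). With IDE196 it went from 6.68, 6.57 and 4.04 CPM to 1.95, 2.48 and 2.16 CPM, 2.62-fold lower (log2 -1.39, SE 0.22, adjusted p = 4.01e-05). No treated library reached a DMSO library in any of the 4. In 92-1 the FHT-1015 call ended without DMSO replicate 1 or FHT-1015 replicate 3 of 24 h, where the adjusted p reached 0.0819, and with limma-voom (log2 -0.46, adjusted p = 0.0571). In MEL202 it ended without DMSO replicate 1 or 2 or FHT-1015 replicate 2 or 3 of 24 h (up to 0.135), and in MP41 without any FHT-1015 library of 24 h, DMSO 24 h replicate 1 or DMSO 4 h replicate 2 or 3 (up to 0.093). With no filter on low counts it ended in MEL202 (0.0714) and in MP41 (0.163), and in MP41 also in a fit of only the 6 libraries compared (0.119). Without DMSO 24 h replicate 2 it was kept in MP41, at log2 -0.56 (adjusted p = 0.005).

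At 4 h of FHT-1015 in 92-1 both subunits stood on the other side of DMSO. TAP1 was lower, at 1.54, 1.33 and 2.07 CPM beside 2.74, 2.86 and 3.99 CPM (1.96-fold, log2 -0.97, SE 0.23, adjusted p = 0.00449). TAP2 held 9.05, 9.02 and 8.99 CPM beside 7.66, 6.73 and 4.96 CPM, which did not overlap but had a log2 difference of 0.48 (SE 0.19) and an adjusted p of 0.063. It was called in a fit with the replicate number as a block, with limma-voom, in a fit of only the 6 libraries compared, and without DMSO 4 h replicate 1, and the adjusted p over the alternatives ranged from 0.015 to 0.106.

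PSMB9, which starts opposite TAP1 in the shared interval, could be tested in MP41 alone. There FHT-1015 at 24 h raised it from 1.96, 1.94 and 1.48 CPM to 4.54, 5.13 and 5.87 CPM, 2.90-fold (log2 1.54, SE 0.26, adjusted p = 0.000489). The treated libraries had 76, 122 and 142 reads and the DMSO libraries 39, 34 and 34. Without DMSO replicate 2 the difference was 1.59 (adjusted p = 0.000869). At 4 h PSMB9 held 2.24, 1.97 and 1.58 CPM beside 0.950, 1.4 and 1.47 CPM in DMSO. These groups did not overlap, but the log2 difference of 0.58 (SE 0.28) was not called (adjusted p = 0.895). In 92-1 it had 4, 8 and 2 reads with FHT-1015 at 24 h beside 0, 1 and 2 in DMSO, and 9, 10 and 11 reads with IDE196 beside 6, 9 and 2. In MEL202 it had 3, 4 and 5 reads beside 2, 0 and 5. With so few reads PSMB9 was not tested in these 2 lines, so a change there is neither shown nor excluded.

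**Figure D3:**
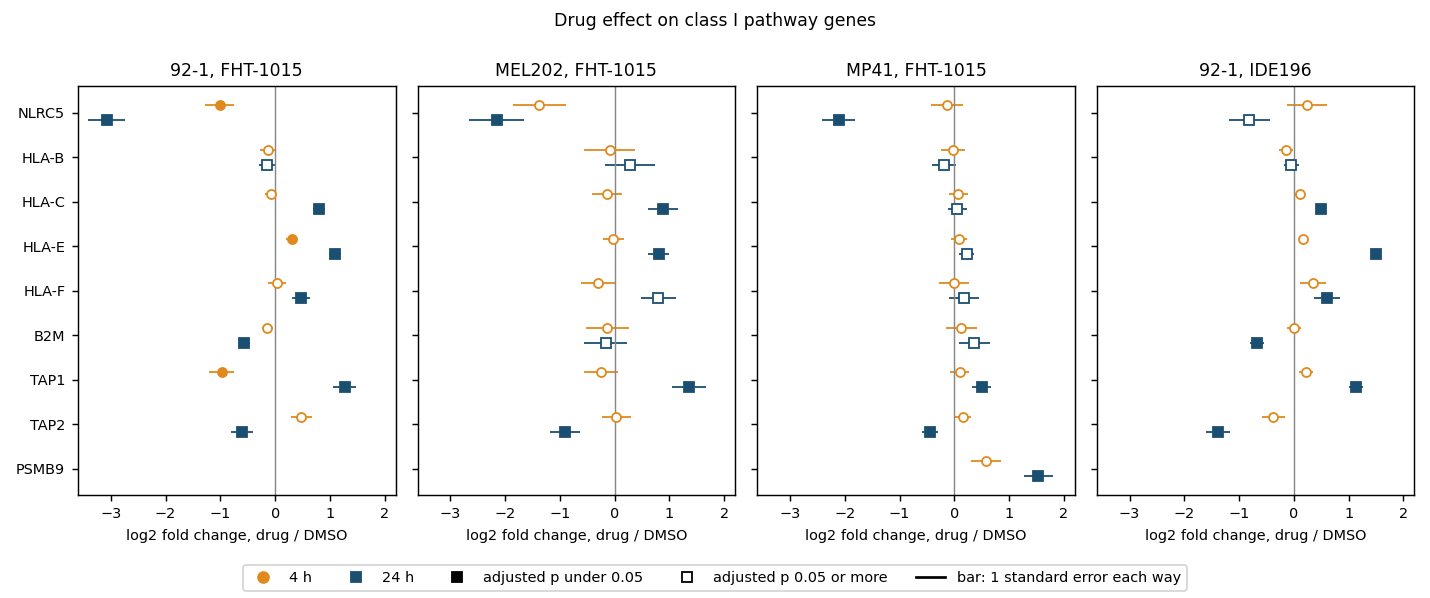
Log2 fold change of each gene, drug against its own DMSO, by experiment, at 4 h (circles) and 24 h (squares), with bars of 1 standard error each way; filled symbols have an adjusted p under 0.05, and PSMB9 was tested in MP41 alone. At 24 h NLRC5 is at -3.08, -2.15 and -2.11 with FHT-1015 in 92-1, MEL202 and MP41, and TAP1 and TAP2 lie on opposite sides of 0 in each experiment.

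Effects on several members differed between 4 h and 24 h. The 24 h effect minus the 4 h effect of FHT-1015 was called for 6 of 8 members in 92-1, beside 45.5% of genes. TAP1 had the largest of them, a difference of 2.24 on the log2 scale (SE 0.31, adjusted p = 2.86e-05), from below DMSO to above it. TAP2 moved the other way by -1.09 (SE 0.27, adjusted p = 0.00413), and NLRC5 by -2.07 (SE 0.44, adjusted p = 0.00121). With IDE196 5 of 8 members were called, beside 30.7% of genes, led by HLA-E with 1.34 (SE 0.11, adjusted p = 1.94e-07). Without DMSO 24 h replicate 4 the count was 3, beside 25.6% of genes. The HLA-C call ended in 9 of the 12 fits without 1 library (adjusted p up to 0.114) and the TAP2 call in 2 of 12, without DMSO 24 h replicate 4 or IDE196 4 h replicate 2 (up to 0.0508). In MEL202 it was 1 of 8, beside 6.89% of genes, TAP1 with 1.61 (SE 0.43, adjusted p = 0.039), a call kept without DMSO 4 h replicate 2 or 3 or FHT-1015 4 h replicate 2 and ended in the other fits without 1 library, where the adjusted p reached 0.106. In MP41 it was 1 of 9, beside 18.6% of genes, NLRC5 with -1.98 (SE 0.42, adjusted p = 0.00543), and 3 of 9 without DMSO 24 h replicate 2, beside 21.6%, or 2 without replicate 3, beside 36.3%.

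Among the 3 lines the FHT-1015 effect at 4 h differed for 0 of the 8 members other than PSMB9, beside 1.38% of genes. At 24 h it differed for 2 of 8, beside 12% of genes. HLA-E (adjusted p = 0.00394) had log2 effects of 1.09, 0.80 and 0.23 in 92-1, MEL202 and MP41. With no filter on low counts this was not called (adjusted p = 0.0846), and without MP41 DMSO 24 h replicate 2 it was kept (0.0229). HLA-C (adjusted p = 0.0454) had 0.80, 0.89 and 0.05, a call that ended in 27 of the 36 fits without 1 library, where the adjusted p reached 0.183 without MP41 DMSO 24 h replicate 2. TAP1 missed the threshold (adjusted p = 0.0587) with 1.27, 1.36 and 0.50. It was called with the stranded columns summed (0.0401) and in 5 of 36 fits without 1 library, and its adjusted p was 0.256 without MP41 DMSO 24 h replicate 2. MP41, with the smallest effects on these genes, had the highest DMSO levels of them.

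The 2 drugs, which have different targets, were compared in 92-1 at matched times, each against its own DMSO, over 8 members at 2 times. Doses are not given in the sources used here, so the sizes are those of these treatments. Each drug was its own experiment, so drug and experiment cannot be told apart in these contrasts. Between the 2 DMSO sets 6 of 8 members differed, beside 60.4% of genes. At 4 h the effects differed for 2 of 8 members, beside 24.6% of genes: TAP1 by -1.20 (SE 0.25, adjusted p = 0.000658) and TAP2 by 0.85 (SE 0.28, adjusted p = 0.0247), FHT-1015 minus IDE196. The TAP2 call ended without DMSO replicate 5 or IDE196 replicate 1 or 3 of the IDE196 experiment, or DMSO replicate 3 of the FHT-1015 experiment, all of 4 h, where the adjusted p reached 0.0885. At 24 h they differed for 2 of 8, beside 33% of genes. NLRC5 differed by -2.27 (SE 0.56, adjusted p = 0.00221), 4.81-fold lower after FHT-1015, and HLA-E by -0.42 (SE 0.13, adjusted p = 0.0139). The HLA-E call ended without DMSO replicate 6 of IDE196 or replicate 2 of FHT-1015, of IDE196 or of the DMSO set of FHT-1015 at 24 h, where the adjusted p reached 0.0637. TAP2 at 24 h missed the threshold with 0.77 (SE 0.30, adjusted p = 0.051), and NLRC5 at 4 h with -1.25 (SE 0.47, adjusted p = 0.0531). Both lie at the threshold: TAP2 was called in 12 of the 24 fits without 1 library (adjusted p from 0.00943 to 0.124) and with relative log expression normalisation (0.0489), and NLRC5 in 6 of 24 (from 0.0151 to 0.141) and with no filter on low counts (0.0431). For HLA-C (0.30, SE 0.15), TAP1 (0.14, SE 0.23) and B2M (0.10, SE 0.18) at 24 h the difference was not called, which does not show that the drugs act alike.

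The rest of the pathway was read in 7 lists, described by counts. At 24 h the background was 29.2% of all genes higher and 31.4% lower with FHT-1015 in 92-1, 8.69% and 10.1% in MEL202, 17.4% and 18.7% in MP41, and 28.7% and 29.4% with IDE196. Of the MP41 calls at 24 h in these lists, those of PSMB10 (adjusted p = 0.0951), NFYA (0.0679), CREB1 (0.098) and HLA-DPA1 (0.0579) ended without DMSO 24 h replicate 2. PDIA3 (0.0135) and EZH2 (0.000484) were then called lower. HFE, with too few reads to be tested with all libraries, was then called higher (log2 4.25). CREB1, EZH2 and HFE are named here after their values were seen. In the loading complex and trimming list, 7 genes, FHT-1015 at 24 h gave 1 higher and 5 lower in 92-1, 1 and 1 in MEL202 and 0 and 1 in MP41, and IDE196 gave 1 higher and 2 lower. Their median log2 effects were -0.62, -0.37, -0.14 and 0.18. CALR, the chaperone that holds the empty heavy chain, fell in each of these 4, by 0.87, 0.75, 0.73 and 1.58 on the log2 scale. PDIA3, its partner oxidoreductase, fell by 0.89 with FHT-1015 and by 0.76 with IDE196 in 92-1. ERAP2, which trims peptides, fell with FHT-1015 in 92-1 by 1.00 at 4 h and by 1.47 at 24 h.

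The immunoproteasome and activator list, 5 genes with 4 tested in MEL202, gave 0 higher and 3 lower with FHT-1015 in 92-1 at 24 h, none in MEL202, 0 and 1 in MP41, and 2 and 2 with IDE196. Of all genes 31.4% were lower in 92-1 and 18.7% in MP41 with FHT-1015, and with IDE196 28.7% were higher and 29.4% lower. PSMB10, the beta2i subunit, fell by 0.86 in 92-1 and by 0.91 in MP41 with FHT-1015 and rose by 0.64 with IDE196. POMP, the assembly factor, fell by 0.74 with FHT-1015 and by 1.26 with IDE196 in 92-1, and PSME2, a subunit of the PA28 cap, fell by 0.63 with IDE196. None of the 3 constitutive catalytic subunits was called with FHT-1015 in any line, at 4 h or at 24 h. With IDE196 at 24 h PSMB6 fell by 0.65 and PSMB5 by 0.39, and PSMB7 was at -0.14.

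Of 12 regulators of class I transcription, FHT-1015 at 24 h gave 4 higher and 1 lower in 92-1, 1 and 0 in MEL202 and 4 and 1 in MP41, and IDE196 gave 3 and 2. The share of all genes higher was 29.2%, 8.69%, 17.4% and 28.7% in these 4. The MP41 count includes NFYA and CREB1, whose calls ended without DMSO 24 h replicate 2, and EZH2 was then called lower. RFX5, which binds the X box with NLRC5 on class I promoters, rose in each of these 4, by 1.08 (adjusted p = 8.74e-09), 0.89 (adjusted p = 0.0199), 0.94 (adjusted p = 0.000298) and 0.52 (adjusted p = 1.92e-05). NFKB1, the precursor of NF-kB p50, rose by 0.93 at 4 h in 92-1 with FHT-1015 and by 0.31 at 24 h with IDE196, and fell by 1.01 in MP41 at 24 h. NFYA, a CCAAT-binding factor, rose by 0.42 in MP41 and fell with IDE196 by 0.62 at 4 h and by 0.68 at 24 h. Among the 4 genes of the interferon gamma receptor and its kinases, JAK2 rose at 24 h by 1.04 in MEL202, 1.02 in MP41 and 0.84 with IDE196. JAK1 rose by 0.81 with IDE196 at 24 h and fell by 0.36 with FHT-1015 at 4 h in 92-1. IFNGR2 fell in those same comparisons, by 0.46 and by 0.40.

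Class I-like genes did not follow one direction, and 3 of the 6 were tested in 92-1 and MEL202 and 4 in MP41. MR1, which shows vitamin B metabolites to MAIT cells, rose at 24 h in each experiment, by 0.80, 0.85 and 1.17 with FHT-1015 in 92-1, MEL202 and MP41 and by 1.39 with IDE196. At 4 h MR1 had fallen by 0.86 with FHT-1015 in 92-1 and risen by 0.47 with IDE196. MICA and MICB, ligands of the activating receptor NKG2D, fell at 24 h with FHT-1015 in 92-1 by 0.39 and 1.28 and in MP41 by 0.72 and 0.67, and with IDE196 by 1.13 and 2.86. In MEL202 at 24 h neither was called, at -0.23 and 0.039. Of the 8 class II genes, 3 of 6 tested fell with FHT-1015 in 92-1 at 24 h, beside 31.4% of all genes: HLA-DPB1 by 1.25, CIITA, their transactivator, by 0.90 and HLA-DPA1 by 0.68. In MP41 2 of 6 rose, beside 17.4% of all genes, with HLA-DPA1 at 0.71, and in MEL202 and with IDE196 none was called.

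**Figure D4:**
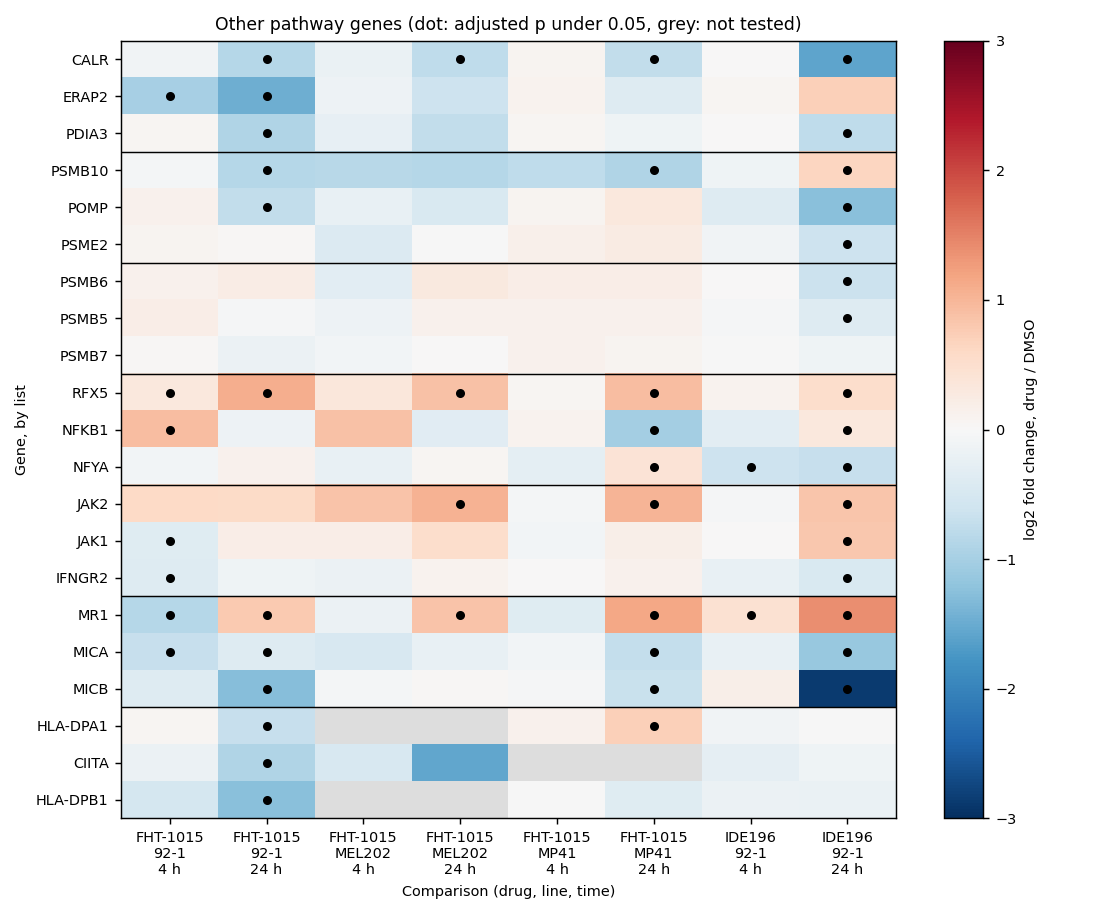
Log2 fold change of the genes named from the 7 other lists in the 8 drug comparisons (colour scale, red higher and blue lower after drug); black dots mark an adjusted p under 0.05, and grey cells were not tested. CALR is lower and RFX5 and MR1 are higher at 24 h in each experiment.

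The 5 genes whose levels most resembled the mean of the 8 members tested in every experiment were INSYN1 (Pearson r 0.906), THYN1 (0.889), LBH (0.872), H1FX (0.87) and RGS9 (0.865). The measure was taken over 16 group means of log2 CPM centred within each experiment, among 10495 protein-coding genes. The points share experiments and DMSO groups and the members themselves moved in both directions, so these values are a description and carry no test.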

How the data were processed

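Poly-A libraries were made with the NEBNext Ultra RNA kit, per the labels' protocols. The authors deposited whole-number read counts by gene, 1 file a library, with an unstranded and 2 stranded columns; the aligner and the annotation are not given in the sources used here, and the submitters' processing notes name hg38 and limma. Tests ran on the unstranded column; 49.73% to 50.11% of stranded reads were on the first strand. The 92 spike-in rows had 0 reads and summary rows were left out; ambiguous reads were 10.3% to 12.9% and multimapping reads 2.81% to 5.26%. Symbols, coordinates and exon lengths came from GENCODE 29, which holds 58552 of the 58870 genes, 47420 under the same version. TPM was computed from the counts and union exon length, which understates genes with long minor transcripts such as B2M. It can also understate genes that lose reads on shared exons, such as HLA-F.

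Each experiment was fitted with edgeR 4.0.16 in R 4.3.3 (TMM, filterByExpr, quasi-likelihood F-test), on 15685 genes in 92-1 and 15913 in MEL202 with FHT-1015, 15543 in MP41 and 15437 in 92-1 with IDE196. Lines were compared in a fit of 36 libraries and drugs in a fit of 24. P-values were Benjamini-Hochberg adjusted over all genes tested, with a threshold of 0.05; standard errors are the log2 fold change over the square root of F. The script was tested on simulated data. Alternatives were relative log expression normalisation, no filter, summed stranded columns, DESeq2 1.42.0 and limma-voom with library quality weights (limma 3.58.1). The others were only the samples compared, a replicate block, and leaving out each library. Replicates of a group differed beyond sampling noise in each group.

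The members and lists were chosen with earlier results of these data known; 1 gene of the regulator list is not reported here. Named are the 9 members, up to 3 genes of each list called in the most drug comparisons (ties by size of change), and the 5 genes most like the members' mean, with at least 5 CPM. Counts are not independent molecules, so errors from read numbers cover counting alone.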

Additional observations from a re-analysis of the deposited data

Results flagged for a closer look

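Effects that differed between lines, drugs or times by a test of the difference itself are given here with their adjusted p from edgeR. The FHT-1015 effect at 24 h differed among the 3 lines for HLA-E (adjusted p = 0.00394) and HLA-C (0.0454). The effects of FHT-1015 and IDE196, each its own experiment, differed in 92-1 for TAP1 (0.000658) and TAP2 (0.0247) at 4 h, and for NLRC5 (0.00221) and HLA-E (0.0139) at 24 h.

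The effect of FHT-1015 in 92-1 differed between 24 h and 4 h for TAP1 (adjusted p = 2.86e-05), HLA-C (0.000398), HLA-E (0.00058), NLRC5 (0.00121), TAP2 (0.00413) and B2M (0.0296). It differed with time for TAP1 in MEL202 (0.039) and for NLRC5 in MP41 (0.00543). The effect of IDE196 differed with time for HLA-E (1.94e-07), TAP1 (0.00132), B2M (0.00883), TAP2 (0.0176) and HLA-C (0.0401).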

How the results depend on the processing

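DESeq2 changed no call among the 66 drug effects of members, and relative log expression normalisation brought 1 of 120 values past the threshold (TAP2, the difference between drugs at 24 h, adjusted p = 0.0489) and reversed 1. The 24 h falls of NLRC5 with FHT-1015 and the 24 h rises of HLA-E in 92-1 and MEL202 kept their calls under all alternatives and all left-out libraries. With no filter, the calls of HLA-F (FHT-1015 in 92-1), TAP2 (MEL202 and MP41) and TAP1 (MP41) at 24 h ended, at adjusted p of 0.0894, 0.0714, 0.163 and 0.0644. Without 1 library the change of effect with time was no longer called for B2M in 92-1 in 5 of 12 fits (adjusted p up to 0.0759), nor with IDE196 for HLA-C in 9 of 12 (up to 0.114) and TAP2 in 2 of 12 (up to 0.0508). Depth limits NLRC5, PSMB9 and, in MEL202, HLA-B, which had few reads.

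Counts of members called moved as follows, each beside the share of all genes called in the same fit; the cause was not tested. The FHT-1015 effect at 24 h differed among lines for 0 of 8 members with no filter (5.83%) and 4 with summed stranded columns (12.1%). In 92-1 at 4 h, 2 members were higher with limma-voom (19.9%), with only the samples compared (13.3%) and with the replicate block (14.6%). In MP41 at 24 h, 4 were higher with limma-voom (32.1%), 1 with no filter (9.03%) and 1 with only the samples compared (9.01%), and 1 was lower with no filter (8.39%) and 1 with only the samples compared (13.2%). In MEL202 at 24 h, 1 was lower with no filter (5.14%). Leaving out 1 library moved several counts. DMSO at 24 h against 4 h in MP41 ranged from 0 to 4 (0.0869% to 42.6%). The effect among lines at 24 h ranged from 1 to 3 (8.96% to 20.9%). The difference between drugs ranged from 1 to 3 at 24 h (28.5% to 33.2%) and from 1 to 3 at 4 h (20.4% to 25%). Members whose effect changed with time numbered 0 to 2 in MEL202 (3.14% to 9.55%), 1 to 3 in MP41 (12.1% to 36.3%) and 3 to 5 with IDE196 (25.6% to 29.1%). Members higher ranged from 0 to 1 in 92-1 at 4 h (8.66% to 13%) and from 1 to 3 in MP41 at 24 h (12.2% to 24.7%). Members lower at 24 h ranged from 1 to 2 both in MEL202 (5.9% to 12.6%) and in MP41 (14.9% to 24.6%).

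Of the values that reversed, the HLA-F difference of MP41 minus MEL202 in DMSO (log2 -0.73) had been called, and the others had not. With limma-voom, B2M, HLA-B and HLA-C in MEL202 at 4 h became 0.20, 0.46 and 0.12, B2M with IDE196 at 4 h -0.031, and HLA-F with FHT-1015 -0.10 in 92-1 at 4 h and -0.21 in MP41 at 24 h. With summed stranded columns, HLA-F became -0.17 in 92-1 at 4 h, -0.47 in MP41 at 24 h and 0.012 for DMSO of MP41 minus MEL202, and HLA-B 0.032 in MP41 at 4 h. B2M with IDE196 at 4 h was -0.004 with no filter, HLA-C in MP41 at 24 h -0.013 with only the samples compared, and HLA-F in MP41 at 4 h 0.001 with relative log expression.

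Without 1 library, the log2 effects at 4 h in MEL202 ranged from -0.46 to 0.42 for B2M, -0.41 to 0.30 for HLA-B, -0.35 to 0.057 for HLA-C, -0.19 to 0.11 for HLA-E, -0.52 to 0.067 for TAP1 and -0.10 to 0.24 for TAP2. At 4 h in MP41 they ranged from -0.17 to 0.15 for HLA-B, -0.012 to 0.18 for HLA-C, -0.14 to 0.12 for HLA-F and -0.39 to 0.077 for NLRC5. At 24 h in MP41 they ranged from -0.13 to 0.20 for HLA-C and -0.004 to 0.39 for HLA-F. At 4 h in 92-1 they ranged with FHT-1015 from -0.175 to 0.043 for HLA-C and -0.083 to 0.12 for HLA-F, and with IDE196 from -0.12 to 0.089 for B2M, -0.003 to 0.50 for HLA-F and -0.029 to 0.62 for NLRC5. In DMSO, TAP2 between the sets of 92-1 ranged from -0.12 to 0.06.

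Same-numbered FHT-1015 and DMSO libraries deviated together (correlation above 0.1) in 7 of 18 pairs, from -0.322 to 0.508, so the numbers were not taken as pairs. The replicate block reversed HLA-F in MP41 at 4 h, to 0.013, and added the call of TAP2 in 92-1 at 4 h. No paired analysis was possible for IDE196 because its arms share no replicate numbers.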

Other observations

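HLA-G, a class I-like chain of the placenta, was singled out after its values were seen. In MP41 it had 6, 14 and 13 reads in DMSO at 24 h and 0, 0 and 1 with FHT-1015, and no test is given because it passed the filter on low counts through the libraries where it is high. At 4 h it had 7, 15 and 3 reads in DMSO and 4, 4 and 10 with FHT-1015. In 92-1 and MEL202 no library had more than 2 reads of HLA-G.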
